A study of Mus musculus with 8 samples.

Results

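Interferon-stimulated genes outside the GBP family, that is, genes whose transcription rises when a cell receives interferon, were followed in regulatory T (Treg) cells that lacked one or both members of a noncanonical NF-kappaB pair. The set has 42 genes, taken by symbol from the deposited Treg expression table. All 42 were among the 22432 genes listed there, and all 42 passed the filter that left 13797 genes for testing (an average of 1 or more over the 8 libraries after un-logging). They are ordered below by role, from transcription factors to effectors.

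RNA was sequenced from Foxp3-CRE-YFP+ Treg cells of C57Bl/6 mice, isolated by sorting from a pool of spleen and lymph node cells, with 2 libraries in each of 4 genotypes. Every group, controls included, carried the Foxp3-CRE-YFP allele, which restricts Cre and the yellow reporter to Foxp3-expressing cells. WT cells carried it alone, RelB-KO cells carried it with RelB F/F, Nfkb2-KO cells with nfkb2 F/F, and DKO cells with both floxed genes. Before RNA was extracted all cells spent 16 h in culture, on plates coated with antibody to CD3 (5 µg/ml) and with soluble antibody to CD28 (1 µg/ml), an agonist antibody to OX40 (2 µg/ml) and IL-2 (10 ng/ml). The age of the mice is not given in the labels used here. Nothing in the labels says that the 2 libraries of a genotype came from separate animals, so all p-values below measure only the spread between these libraries.

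Type I interferons act through a receptor made of IFNAR1 and IFNAR2, whose kinases JAK1 and TYK2 activate transcription factors that include STAT2. With IRF9 these bind the interferon-stimulated response element (ISRE). Interferon-gamma acts through IFNGR1 and IFNGR2, and its signal reaches genes through the gamma-activated site (GAS) and induces IRF1, itself a transcription factor for a further set of targets that includes the immunity-related GTPases. OX40 is a receptor of the TNF receptor family that can activate noncanonical NF-kappaB, in which the product of Nfkb2 is processed and pairs with RelB.

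Promoters of some members are shown first, so that the elements upstream of their starts can be read beside the values. Irf1, Igtp and Irgm1 are among the members with the smallest p-values in Nfkb2-KO against WT. Rsad2 and Ifit1 are shown for a difference between replicates and not between genotypes. Iigp1 and Zbp1, the members with the lowest differences in Nfkb2-KO against WT, had no promoter entry. Of the 42 genes, 31 were matched by symbol in a table of RefSeq promoters (GRCm38.p6), each reaching from 250 bases before to 50 bases after the start. The ISRE core, a GAAA followed by 2 bases of any kind and another GAAA and searched on both strands, was present in 14 of the 31 (45.2%), against 3.99% of all 27025 genes in that table. The GAS TTCNNNGAA, which reads alike on both strands, was present in 10 of the 31 (32.3%) against 9.55%, and the kappaB consensus in 6 of the 31 (19.4%) against 9.55%. The 250 bases before the start are given 5′ to 3′ on the gene's strand, with every match to any of these motifs in capitals. The Irf1 promoter (chr11:53769764-53770013, plus strand, the first of the gene's starts in the table) holds a GAS and a kappaB match. The Igtp promoter (chr11:58199306-58199555, plus strand) holds a GAS and an ISRE core close to each other, and the Irgm1 promoter (chr11:48871421-48871670, minus strand) holds overlapping ISRE cores. The Rsad2 promoter (chr12:26456453-26456702, minus strand) and the Ifit1 promoter (chr19:34640639-34640888, plus strand) hold ISRE cores that read on the opposite strand. A match is a stretch of letters and was not measured as a binding site.
Irf1: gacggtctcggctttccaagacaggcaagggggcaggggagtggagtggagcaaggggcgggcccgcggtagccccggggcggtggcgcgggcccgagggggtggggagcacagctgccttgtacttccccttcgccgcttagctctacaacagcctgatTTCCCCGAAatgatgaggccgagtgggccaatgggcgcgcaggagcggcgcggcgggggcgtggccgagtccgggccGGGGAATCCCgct
Igtp: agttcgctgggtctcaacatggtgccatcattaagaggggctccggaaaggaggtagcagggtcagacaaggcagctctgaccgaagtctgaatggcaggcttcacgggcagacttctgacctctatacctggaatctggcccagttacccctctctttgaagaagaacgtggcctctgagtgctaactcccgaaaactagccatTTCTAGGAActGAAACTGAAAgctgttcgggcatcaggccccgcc
Irgm1: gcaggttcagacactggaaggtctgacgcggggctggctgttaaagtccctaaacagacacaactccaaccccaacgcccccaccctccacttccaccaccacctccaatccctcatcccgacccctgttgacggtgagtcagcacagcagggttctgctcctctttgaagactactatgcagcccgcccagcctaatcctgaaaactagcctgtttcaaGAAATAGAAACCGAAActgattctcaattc
Rsad2: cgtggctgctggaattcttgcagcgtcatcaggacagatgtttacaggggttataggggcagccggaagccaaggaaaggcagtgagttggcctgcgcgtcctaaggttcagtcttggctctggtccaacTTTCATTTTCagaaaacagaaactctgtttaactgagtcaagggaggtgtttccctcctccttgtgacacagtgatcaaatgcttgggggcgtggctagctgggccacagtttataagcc
Ifit1: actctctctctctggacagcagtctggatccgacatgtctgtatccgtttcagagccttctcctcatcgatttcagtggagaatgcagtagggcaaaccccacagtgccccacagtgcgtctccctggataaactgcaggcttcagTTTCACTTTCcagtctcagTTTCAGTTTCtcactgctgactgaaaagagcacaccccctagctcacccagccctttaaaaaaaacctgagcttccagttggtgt

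The targeted genes went with the labels. Relb was between 10.49 and 10.84 (log2 value) in the 4 libraries with an intact Relb and between 6.35 and 7.08 in the 4 floxed for it. Nfkb2 was between 12.31 and 12.80 in the 4 libraries with an intact Nfkb2. It was at 8.75 and 8.79 in Nfkb2-KO, and higher, at 9.29 and 9.85, in DKO. Foxp3, which defines Treg cells, was between 13.95 and 14.28 in all 8 libraries. WT replicate 1 stood apart in 2 sex-linked genes. Its Xist value was 8.17, where the other libraries had 14.61 to 15.13, and its Ddx3y value was 11.60, where they had 4.25 to 4.35. Ddx3y lies on the Y chromosome, so by these genes WT replicate 1 reads as male and the other libraries as female. Every comparison that holds WT therefore also holds a difference in sex, and the part of sex in it was not tested. Pax5, which defines B cells, and Clec9a, which marks dendritic cells, were listed at 0. The deposited values are on a log2 scale that the authors' header calls RPKM, but they sum to between 18.2 and 19.7 M per library once un-logged, so levels are compared here between libraries and not between genes. On this scale the least expressed genes are nearly constant across libraries and their differences are compressed. Of the 42 genes, 4 (Oas2, Ifi44, Oasl1 and Mx1) have a mean un-logged value under 32. In bulk RNA of this kind, fewer cells expressing a gene and less RNA per cell cannot be told apart.

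Interferon-stimulated genes were lowest in Nfkb2-KO cells. Of the 42 genes, 29 had their lowest genotype mean in Nfkb2-KO, 9 in DKO, 4 in RelB-KO and 0 in WT. Over all tested genes, these shares were 31.3% for Nfkb2-KO, 25.2% for DKO, 20.1% for RelB-KO and 23.3% for WT. The highest mean was in WT for 25 of the 42, against 21.5% of all tested genes. Relative to each gene's own mean over the 8 libraries, the median of the 42 was 0.12 and 0.06 (log2, replicates 1 and 2) in WT, 0.05 and 0.03 in RelB-KO, -0.09 and -0.11 in Nfkb2-KO, and 0.09 and -0.15 in DKO. Both Nfkb2-KO libraries were therefore low, and the DKO libraries fell on opposite sides.

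**Figure D1:**
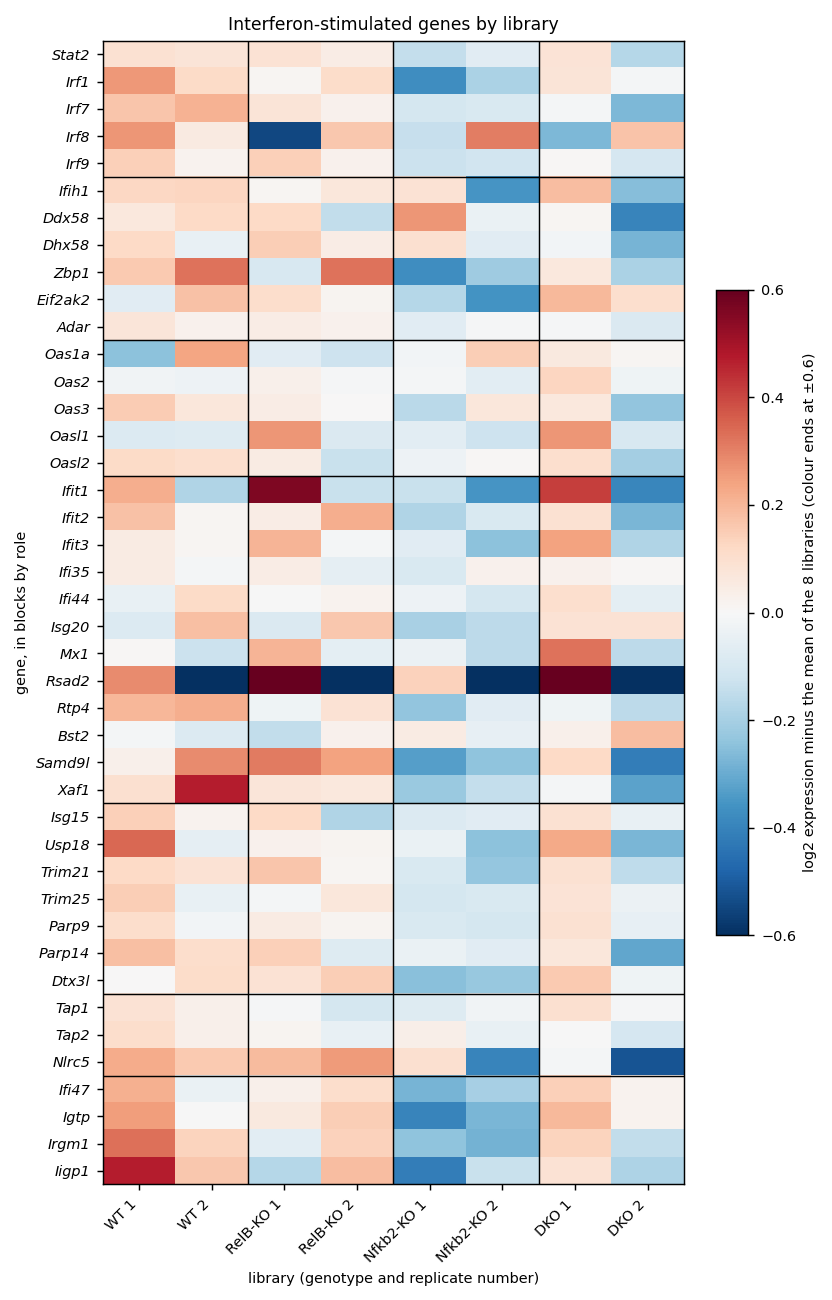
Log2 value of each of the 42 interferon-stimulated genes in each of the 8 libraries, relative to the gene's mean over the libraries (colour scale), with genes grouped by role. The Nfkb2-KO columns and the second DKO column hold most of the low values, and the Rsad2 row alternates between replicate 1 and replicate 2.

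Without Nfkb2 alone, 39 of the 42 genes had a lower mean than in WT (92.9%, against 49.6% of all tested genes), with a median difference of -0.19 on the log2 scale (0.00 over all tested genes). The exceptions were Oas1a at 0.07, Bst2 at 0.05 and Ddx58 at 0.02. For 28 of the 42 both Nfkb2-KO libraries were below both WT libraries, as they were for 20.9% of all tested genes, and for 0 of the 42 both were above, against 21.6%. The difference was below 0 in each replicate taken separately for 34 of the 42 (30.9% of all tested genes), with medians of -0.22 in replicate 1 and -0.16 in replicate 2. Without WT replicate 1, 37 of the 42 were below WT and the median was -0.15.

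The differences were small, and single genes mostly did not pass the test. limma, with Benjamini-Hochberg adjustment over the 13797 genes, called 0 of the 42 (0.341% of all tested genes were called) and gave 14 of them an unadjusted p under 0.05, against 10.7% of all tested genes. With replicate number as a block, limma called 1 of the 42, Irf1, as lower (1% of all tested genes were called lower and 2.91% in either direction), and 17 had an unadjusted p under 0.05, against 18.3%. The authors' deposited table gives 7 of the 42 an adjusted p under 0.05 in this comparison, all lower. Of all genes that have an adjusted p there, 2.73% were under 0.05 and lower. These 7 are Irf1, Zbp1, Dtx3l, Ifi47, Igtp, Irgm1 and Iigp1.

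**Figure D2:**
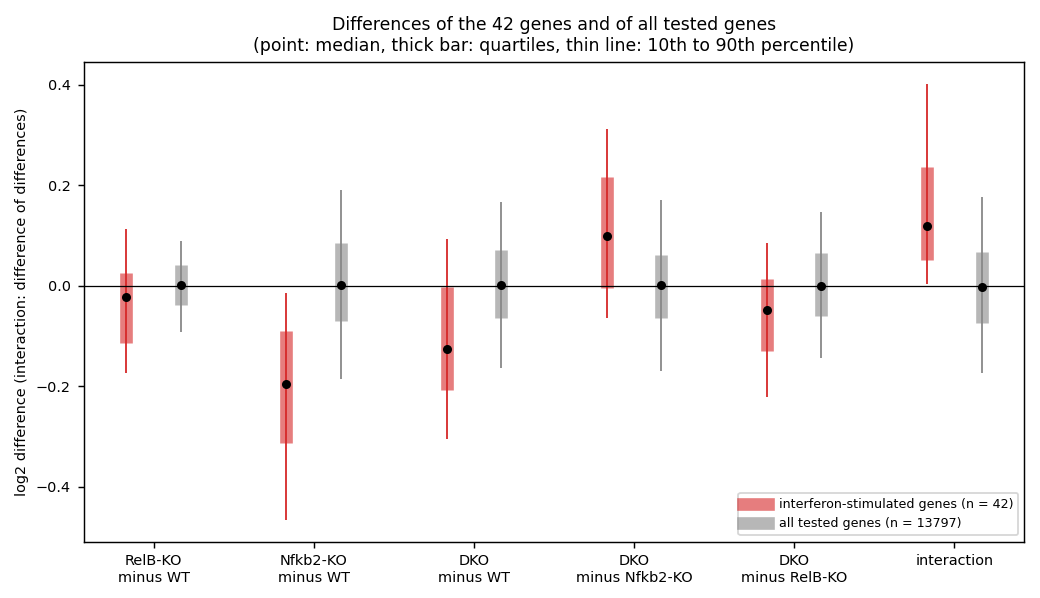
Log2 difference (y axis) in each comparison of genotypes (x axis) for the 42 interferon-stimulated genes and for all 13797 tested genes, with the median as a point, the quartiles as a thick bar and the outer deciles as the ends of a thin line. In Nfkb2-KO minus WT the 42 genes lie below all genes, with a median of -0.19 against 0.00.

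Among the transcription factors, all 5 were below WT in Nfkb2-KO cells, with a median difference of -0.20. Irf1, which is induced by interferon-gamma and by NF-kappaB, was at 12.75 and 12.61 (log2 values, replicates 1 and 2) in WT, 12.51 and 12.60 in RelB-KO, 12.12 and 12.31 in Nfkb2-KO, and 12.57 and 12.48 in DKO. Both Nfkb2-KO values lay below all 6 others. The Irf1 difference from WT was -0.47 ± 0.10 (log2, SE, 2 libraries a group), with a limma adjusted p of 0.188 that became 0.0356 with the replicate block. The authors' deposited table gives -0.49 with an adjusted p of 0.000546. With the block and 1 library left out in turn, the Irf1 difference stayed between -0.58 and -0.35. Its adjusted p ran from 0.0355 to 0.301 and passed 0.05 in 3 of 8 cases. It missed the threshold without WT replicate 1 (0.140), Nfkb2-KO replicate 1 (0.301), Nfkb2-KO replicate 2 (0.0528), DKO replicate 1 (0.0552) and DKO replicate 2 (0.0547). The gene lies on chromosome 11 (mm10 53770014 to 53778374, plus strand) and overlaps Gm17334 on the other strand, and whether the counting used strand is not given in the sources used here.

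Irf7, the factor that amplifies type I interferon production, was at 8.97 and 9.01 in WT, 8.88 and 8.83 in RelB-KO, 8.70 and 8.71 in Nfkb2-KO, and 8.79 and 8.53 in DKO. All 6 knockout values were below both WT values. The Irf7 difference in Nfkb2-KO was -0.28 ± 0.10 (limma adjusted p 0.395). Stat2, at -0.19, and Irf9, at -0.20, are the DNA-binding partners of the type I response. Both had separated libraries, with both Nfkb2-KO values below both WT values, as had 20.9% of all tested genes. Irf8, at -0.08, did not.

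The immunity-related GTPases, which act against intracellular pathogens at their vacuoles, gave the lowest median of any role group. All 4 were below WT in Nfkb2-KO cells, with a median of -0.48. For all 4 both Nfkb2-KO libraries were below both WT libraries (20.9% of all tested genes). Igtp was at 13.24 and 12.99 in WT, 13.05 and 13.14 in RelB-KO, 12.59 and 12.72 in Nfkb2-KO, and 13.19 and 13.01 in DKO. Both Nfkb2-KO values of Igtp lay below the other 6, by -0.46 ± 0.12 against WT (limma adjusted p 0.257, and 0.0549 with the block). Irgm1, a regulator of the other GTPases, was at 11.92 and 11.72 in WT, 11.52 and 11.73 in RelB-KO, 11.35 and 11.30 in Nfkb2-KO, and 11.72 and 11.44 in DKO. Again both Nfkb2-KO values were the lowest, and the Irgm1 difference from WT was -0.49 ± 0.13 (limma adjusted p 0.26, and 0.0526 with the block). For all 4 GTPases the highest value was in WT replicate 1, the library that stood apart in Xist and Ddx3y. Without that library the difference was -0.34 for Igtp and -0.40 for Irgm1.

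Iigp1 was at 13.15 and 12.84 in WT, 12.52 and 12.87 in RelB-KO, 12.27 and 12.55 in Nfkb2-KO, and 12.77 and 12.50 in DKO. It had the lowest difference of the 42 genes, -0.59 ± 0.18 (limma adjusted p 0.339), with wider spread within each genotype than Igtp. Ifi47 was at 12.46 and 12.20 in WT, 12.28 and 12.35 in RelB-KO, 11.96 and 12.04 in Nfkb2-KO, and 12.39 and 12.26 in DKO, a difference of -0.33 ± 0.11 (limma adjusted p 0.362). The authors' deposited table gives -0.47 for Igtp (adjusted p 0.00224), -0.50 for Irgm1 (0.00309), -0.54 for Iigp1 (0.00847) and -0.34 for Ifi47 (0.0418). Igtp (chromosome 11, mm10 58199556 to 58207591) overlaps Irgm2 on the same strand, and reads could be divided between these related genes, so its value is uncertain to that extent.

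**Figure D3:**
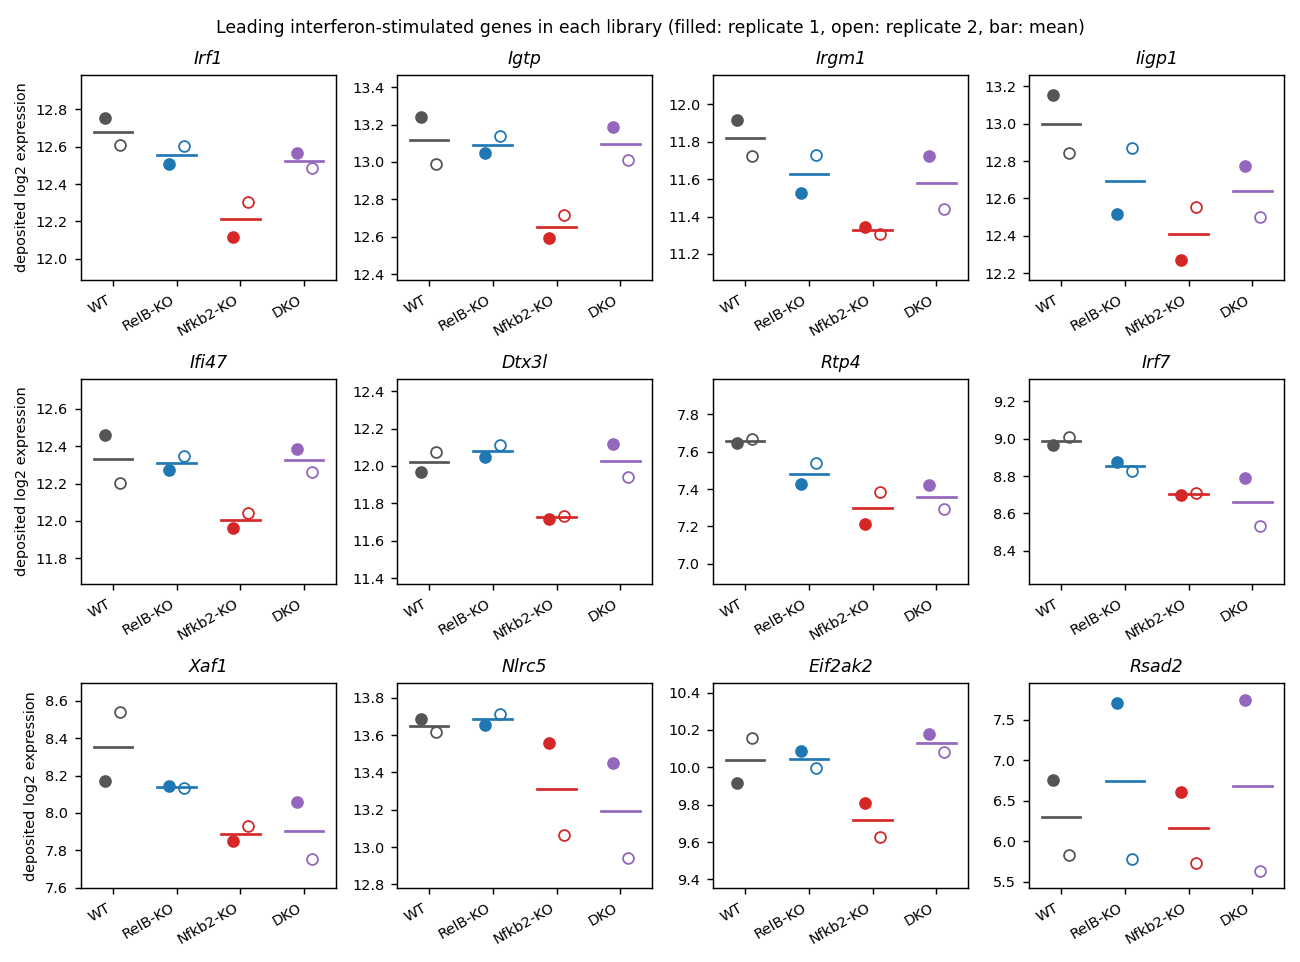
Log2 value (y axis, own range in each panel) of 12 interferon-stimulated genes in each of the 8 libraries, by genotype (x axis), with filled points for replicate 1, open points for replicate 2 and a bar for the genotype mean. For Irf1 and Igtp both Nfkb2-KO points lie below the points of the other genotypes.

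Of the sensors of nucleic acid and the RNA-binding enzymes, 5 of 6 were below WT in Nfkb2-KO cells, with a median of -0.17. Both Nfkb2-KO libraries were below both WT libraries for 4 of the 6 (20.9% of all tested genes). Zbp1, a sensor that can trigger cell death, had the lowest difference of this group, -0.53 ± 0.16 (limma adjusted p 0.338), and the authors' deposited table gives -0.53 with an adjusted p of 0.0117. Eif2ak2, the kinase PKR, was at 9.91 and 10.16 in WT, 10.09 and 10.00 in RelB-KO, 9.81 and 9.63 in Nfkb2-KO, and 10.18 and 10.08 in DKO. Its Nfkb2-KO values were the lowest of the 8, at -0.32 ± 0.11 against WT (limma adjusted p 0.392). The oligoadenylate synthetase family, whose products activate RNase L, had 4 of 5 genes below WT, with a median of -0.01 and a range from -0.16 (Oas3) to 0.07 (Oas1a). Oas2 and Oasl1, both at -0.01, are among the genes with low values whose differences the scale compresses, and Oasl2 was at -0.12.

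The antiviral effectors were below WT in Nfkb2-KO cells in 11 of 12 cases, with a median of -0.21. Both Nfkb2-KO libraries were below both WT libraries for 6 of the 12 (20.9% of all tested genes). Rtp4 was at 7.65 and 7.67 in WT, 7.42 and 7.54 in RelB-KO, 7.21 and 7.38 in Nfkb2-KO, and 7.42 and 7.29 in DKO. All 6 knockout values of Rtp4 were below both WT values, and the Nfkb2-KO difference was -0.36 ± 0.10 (limma adjusted p 0.282). Xaf1, which opposes an inhibitor of apoptosis, was at 8.17 and 8.54 in WT, 8.14 and 8.13 in RelB-KO, 7.85 and 7.93 in Nfkb2-KO, and 8.06 and 7.75 in DKO. Its Nfkb2-KO difference, -0.47 ± 0.15 (limma adjusted p 0.366), was the lowest of the effectors, and its WT replicates lay 0.37 apart.

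All 7 genes of the ISG15 system, the ubiquitin ligases and the ADP-ribosyltransferases were below WT in Nfkb2-KO cells. They lay between -0.30 (Dtx3l) and -0.14 (Parp9), with a median of -0.20. Both Nfkb2-KO libraries were below both WT libraries for 6 of the 7 (20.9% of all tested genes). Dtx3l, a ubiquitin ligase that works in a complex with PARP9, was at 11.97 and 12.08 in WT, 12.05 and 12.11 in RelB-KO, 11.71 and 11.73 in Nfkb2-KO, and 12.12 and 11.94 in DKO. The Nfkb2-KO libraries agree closely and lie below the other 6, at -0.30 ± 0.09 against WT (limma adjusted p 0.322), and the authors' deposited table gives -0.32 with an adjusted p of 0.0486. Dtx3l and Parp9 overlap on opposite strands. In antigen processing, all 3 genes were below WT, with Nlrc5, the transactivator of class I MHC genes, at -0.34 and the peptide transporter subunits Tap1 and Tap2 at -0.11 and -0.07.

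**Figure D4:**
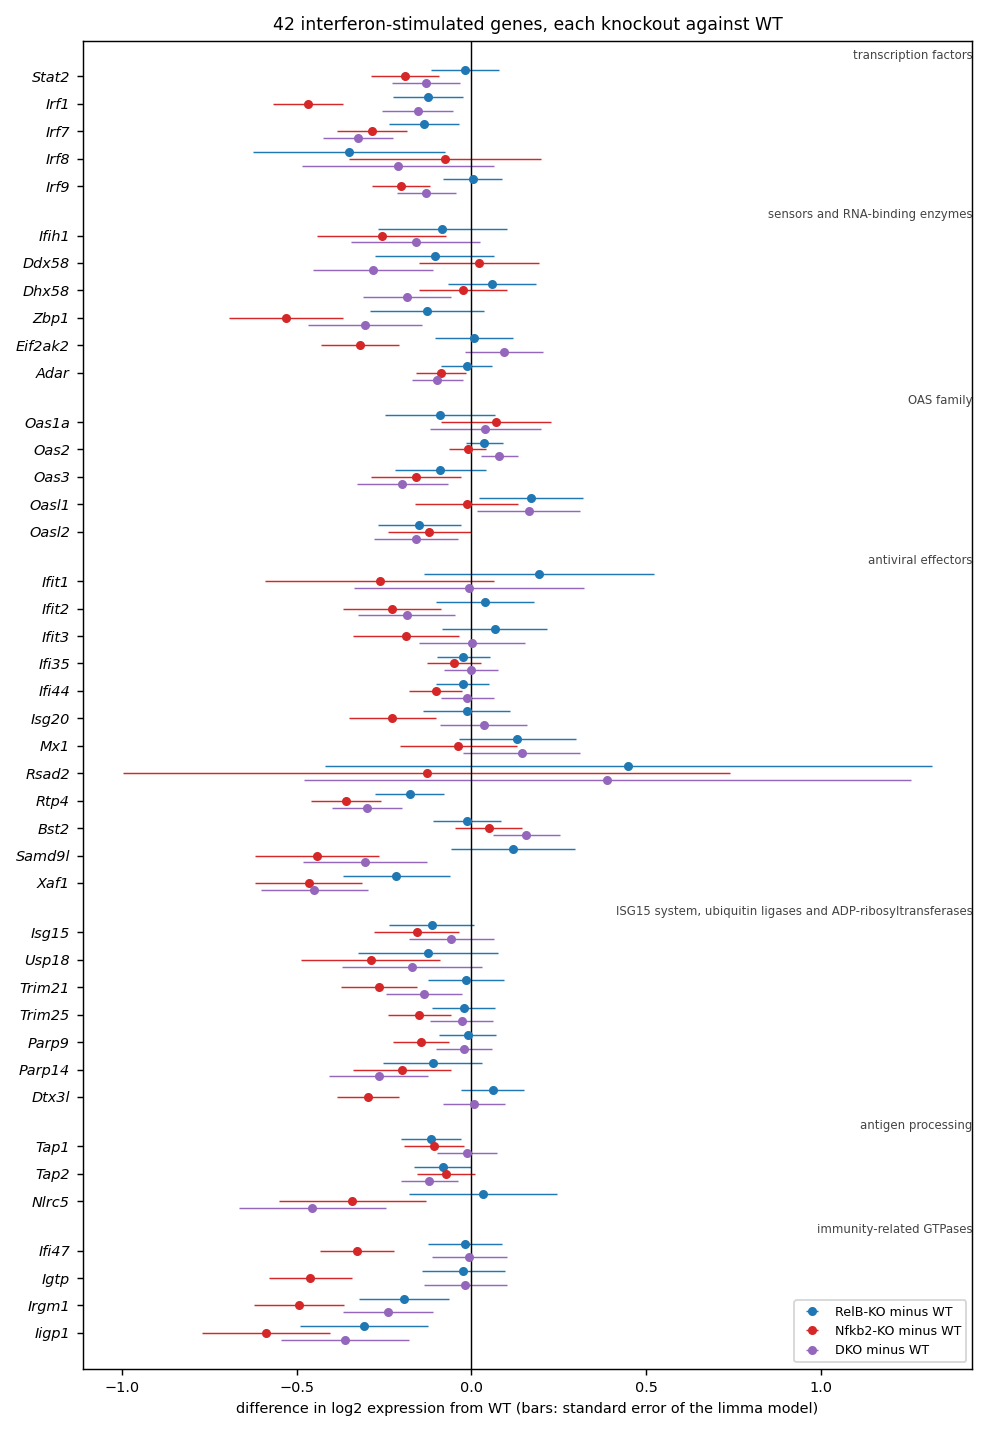
Log2 difference from WT (x axis, point estimate with SE from limma) of each of the 42 interferon-stimulated genes in RelB-KO, Nfkb2-KO and DKO cells, ordered by role. Nfkb2-KO points lie below 0 for 39 genes, DKO points for 32 and RelB-KO points for 29.

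Without Relb alone the 42 genes lay closer to WT. This comparison and that of DKO with WT share the WT libraries with the one above. The difference was below 0 for 29 of the 42 (48.2% of all tested genes), with a median of -0.02. Without WT replicate 1, 22 of the 42 were below WT and the median was -0.01. Without WT replicate 2 these were 31 and -0.05. limma called 0 of the 42 (0.00725% of all tested genes), with 0 at an unadjusted p under 0.05 (1.24%), and called 0 with the block (0.0145%), again with 0 at an unadjusted p under 0.05 (3.13%). The authors' deposited table calls 0 of the 40 that have an adjusted p there (0.119% of genes). Both RelB-KO libraries were below both WT libraries for 9 of the 42 (11% of all tested genes) and above them for 1, Oas2 (9.63%). The lowest p-values belonged to Rtp4 at -0.18 ± 0.10, Iigp1 at -0.31 ± 0.18, Irgm1 at -0.19 ± 0.13, Xaf1 at -0.22 ± 0.15 and Irf7 at -0.13 ± 0.10, all with a limma adjusted p of 1.00. Iigp1 and Irgm1 reached those values through replicate 1 of RelB-KO. The extremes, Irf8 at -0.35 ± 0.27 and Rsad2 at 0.45 ± 0.87, had large errors.

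Without both genes the set lay between these results. In DKO cells 32 of the 42 were below WT (49.3% of all tested genes), with a median of -0.13. limma called 0 of the 42 (0.0145% of all tested genes) with 3 at an unadjusted p under 0.05 (5.18%), and with the block it called 0 (0.0652%) with 6 (12.9%). The authors' deposited table calls 0 of the 40 that have an adjusted p (1.23% of genes). Both DKO libraries were below both WT libraries for 15 of the 42 (17.6%) and above them for 1, Bst2 (16.6%). The lowest p-values were those of Irf7 at -0.33 ± 0.10, Rtp4 at -0.30 ± 0.10, Xaf1 at -0.45 ± 0.15, Nlrc5 at -0.46 ± 0.21 and Iigp1 at -0.36 ± 0.18, each with a limma adjusted p of 0.861. Nlrc5 was at 13.68 and 13.62 in WT, 13.65 and 13.72 in RelB-KO, 13.56 and 13.06 in Nfkb2-KO, and 13.45 and 12.94 in DKO. In both genotypes without Nfkb2 it was lower in both replicates, and more so in replicate 2. The DKO result depended on the library, with a median difference of -0.05 in replicate 1 and -0.20 in replicate 2. Without DKO replicate 2, 21 of the 42 were below WT and the median was 0.00, and without DKO replicate 1 these were 36 and -0.20.

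The comparison of DKO with Nfkb2-KO asks what loss of Relb adds in cells that already lack Nfkb2. Nfkb2 RNA was itself higher in DKO than in Nfkb2-KO, by 0.80 ± 0.20 (limma adjusted p 0.184, and 0.0379 with the block). The part of this in the differences below was not tested. The comparison also shares the Nfkb2-KO libraries with that of Nfkb2-KO with WT, so a low value there raises a difference here. Of the 42 genes, 11 were below Nfkb2-KO in DKO cells (49.7% of all tested genes), with a median of 0.10. limma called 0 of the 42 (0.768% of all tested genes), with 5 at an unadjusted p under 0.05 (9.86%). With the block it called 1, Igtp, as higher (2.07% of all tested genes were called higher and 5.02% in either direction), with 8 at an unadjusted p under 0.05 (16.3%). Both DKO libraries were above both Nfkb2-KO libraries for 13 of the 42 (17.4%) and below them for 0 (17.8%). These 13 included 3 of the 4 immunity-related GTPases and 4 of the 7 genes of the ISG15 and ubiquitin group.

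The Igtp difference between DKO and Nfkb2-KO was 0.44 ± 0.12 (limma adjusted p 0.212, and 0.0466 with the block). With the block and 1 library left out in turn it was between 0.33 and 0.56, with an adjusted p from 0.0256 to 0.364. It passed 0.05 in 4 of 8 cases and missed it without Nfkb2-KO replicate 1 (0.364), Nfkb2-KO replicate 2 (0.0726), DKO replicate 1 (0.271) or DKO replicate 2 (0.159). Eif2ak2 differed by 0.41 ± 0.11 (limma adjusted p 0.217, and 0.0599 with the block), Dtx3l by 0.30 ± 0.09 (0.266), Irf1 by 0.31 ± 0.10 (0.329) and Ifi47 by 0.32 ± 0.11 (0.352). The direction of the set as a whole came from replicate 1, where the median was 0.20 and 6 of the 42 were below Nfkb2-KO, while in replicate 2 the median was -0.01 and 21 of the 42 were below. Without DKO replicate 2, 4 of the 42 were below Nfkb2-KO, and without DKO replicate 1, 22 were.

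Whether loss of Relb acted differently with and without Nfkb2 was tested by the interaction, which subtracts the RelB-KO difference from WT from the DKO difference from Nfkb2-KO. Because it holds the latter, the higher Nfkb2 RNA of DKO enters here too. The interaction was below 0 for 3 of the 42 (51.4% of all tested genes), with a median of 0.12. limma called 0 of the 42 (0.00725% of all tested genes), with 4 at an unadjusted p under 0.05 (4.45%), and with the block 0 (0.471%), with 6 (8.36%). The lowest adjusted p was that of Irf1, whose interaction was 0.44 ± 0.14 (limma adjusted p 0.963, and 0.285 with the block). The interaction was 0.47 for Igtp, 0.45 for Irgm1 and 0.53 for Iigp1. The set's median was 0.26 without DKO replicate 2 and 0.02 without DKO replicate 1. A difference between the genotypes in the effect of Relb was thus not shown for any of these genes.

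DKO cells lay slightly below RelB-KO cells. Of the 42, 29 were lower in DKO (50.3% of all tested genes), with a median of -0.05. limma called 0 (0.00725% of all tested genes) with 0 at an unadjusted p under 0.05 (2.88%), and with the block 0 (0.0145%) with 3 (8.81%), namely Dhx58, Samd9l and Nlrc5. Both DKO libraries were below both RelB-KO libraries for 8 (14.3%) and above them for 3 (13.2%). The lowest difference was that of Nlrc5, -0.49 ± 0.21. The set's median was -0.19 and 35 of the 42 were lower without DKO replicate 1, and these became 0.05 and 11 without DKO replicate 2.

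Rsad2 and Ifit1, both type I interferon targets, were higher in replicate 1 than in replicate 2 in all 4 genotypes. The genes named here were chosen after their values were seen. Of the 42 genes, 11 were higher in replicate 1 in all 4 genotypes, near the share of all tested genes (20.2%), and 0 were lower in all 4 (16.6%). Others differed in sign between genotypes, such as Oas1a, whose replicate 1 minus replicate 2 was -0.48 in WT and 0.06 in RelB-KO, and Xaf1, with -0.37 in WT and 0.31 in DKO. Rsad2, which encodes viperin, was at 6.76 and 5.84 in WT, 7.71 and 5.79 in RelB-KO, 6.61 and 5.73 in Nfkb2-KO, and 7.74 and 5.63 in DKO. In replicate 2 the genotypes of Rsad2 lay within a narrow range, and in replicate 1 RelB-KO and DKO were above WT and Nfkb2-KO. Ifit1, which binds foreign RNA, was at 7.28 and 6.88 in WT, 7.62 and 6.93 in RelB-KO, 6.93 and 6.71 in Nfkb2-KO, and 7.48 and 6.67 in DKO. It followed the same order, with RelB-KO and DKO highest in replicate 1. Oasl1 was at 4.84 in replicate 1 of both RelB-KO and DKO, and between 4.46 and 4.51 in the other 6 libraries. Mx1, an antiviral GTPase whose gene is defective in C57BL/6 and most laboratory strains, was at 4.89 and 4.76 in WT, 4.85 and 4.72 in Nfkb2-KO, 5.09 and 4.82 in RelB-KO, and 5.21 and 4.73 in DKO. The promoters of Rsad2 and Ifit1 printed above hold ISRE cores and no GAS match in that window.

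**Figure D5:**
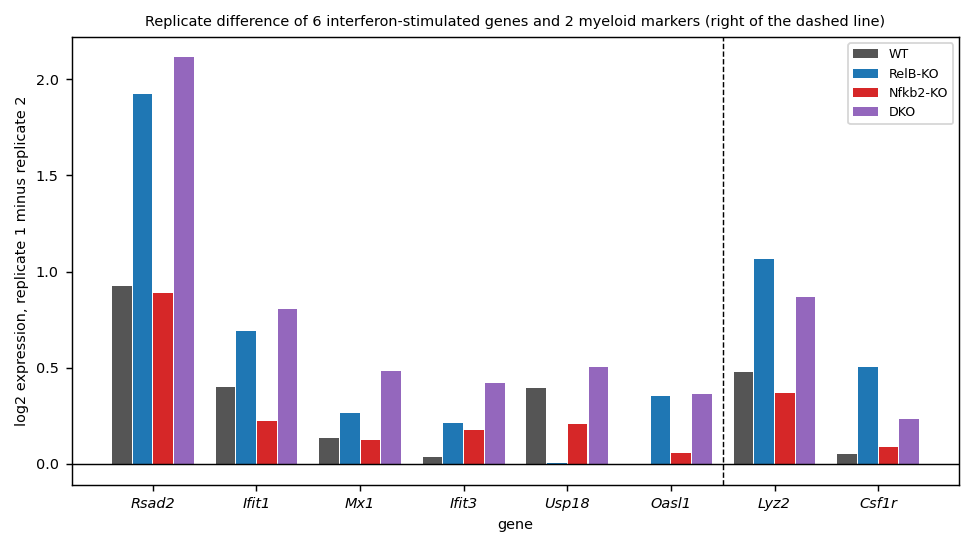
Log2 value in replicate 1 minus replicate 2 (y axis, bars) in each genotype (colour) for 6 interferon-stimulated genes (x axis). Right of the dashed line are Lyz2 and Csf1r, from the 4 tested myeloid and dendritic markers. Rsad2 lies farthest from 0, with 2.11 in DKO, 1.92 in RelB-KO, 0.92 in WT and 0.89 in Nfkb2-KO.

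Of the 4 tested myeloid and dendritic markers, all but Flt3 were highest in replicate 1 of RelB-KO and DKO. Lyz2, the lysozyme of macrophages and neutrophils, was at 5.21 and 4.73 in WT, 5.79 and 4.72 in RelB-KO, 5.08 and 4.72 in Nfkb2-KO, and 5.61 and 4.74 in DKO. Csf1r, a receptor of macrophages, was highest in RelB-KO replicate 1 (3.91) and DKO replicate 1 (3.64). Itgam was higher in replicate 1 than in replicate 2 in every genotype, by 0.11 to 0.19. For Flt3 this difference was between -0.044 and -0.003. Csf1r, Itgam and Flt3 have low values whose differences the scale compresses. Of the 8 myeloid and dendritic markers 4 were tested, and their level was summed together with Itgax and Siglech. The sum (log2) was 6.44 and 6.29 in replicate 1 of RelB-KO and DKO, 5.99 and 5.93 in replicate 1 of WT and Nfkb2-KO, and 5.69 to 5.71 in replicate 2. Itgax and Siglech were under the minimum, Clec9a was listed at 0 and Adgre1 was not matched. The part of these cells in the values of Rsad2, Ifit1, Oasl1 and Mx1 was not tested. Over the 8 libraries the summed level (log2) ran from 7.24 to 7.81 for B cell markers (3 of 5 tested, with Pax5 at 0), from 8.03 to 8.29 for CD8 T and NK cell markers (4 of 6 tested) and from 17.34 to 17.61 for the 7 Treg markers. These sums are given for their range across libraries and are not compared with each other.

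The genes that make, receive and restrain the interferon signal lay on both sides of WT. Of 31 such genes that were listed, 28 were tested (Mb21d1, also on the list, was not matched by symbol), and limma called 0 of the 28 in each of the 6 comparisons, with and without the block. In Nfkb2-KO cells 12 of the 28 were below WT, with a median of 0.01. Among ligands, Ifna1 was listed at 0 and Ifna4 and Ifnk were under the minimum. Ifnar1, a subunit of the type I receptor, was at 11.67 and 11.46 in WT, 11.59 and 11.48 in RelB-KO, 11.20 and 11.23 in Nfkb2-KO, and 11.49 and 11.17 in DKO. Its Nfkb2-KO libraries were below both WT libraries, by -0.35 ± 0.13 (limma adjusted p 0.395, and 0.0755 with the block), and the authors' deposited table gives an adjusted p of 0.0226.

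Ikbke, the kinase that phosphorylates IRF3 and IRF7, was at 11.47 and 11.52 in WT, 11.63 and 11.65 in RelB-KO, 11.11 and 11.16 in Nfkb2-KO, and 11.71 and 11.35 in DKO. It followed Irf1 in being lowest in the Nfkb2-KO libraries, by -0.36 ± 0.12 against WT (limma adjusted p 0.367) and with DKO 0.40 ± 0.12 above Nfkb2-KO (0.281). Ptpn2, a phosphatase that restrains interferon signalling, differed by 0.19 in the other direction in Nfkb2-KO cells. Between DKO and Nfkb2-KO, Ifngr1 differed by -0.45 and Tmem173, the adaptor STING, by -0.22 (limma adjusted p 0.497 and 0.51). Ifng, which encodes interferon-gamma and was chosen after its values were seen, was at 8.31 and 8.66 in WT, 7.48 and 7.94 in RelB-KO, 8.20 and 8.33 in Nfkb2-KO, and 8.35 and 8.31 in DKO. It was lowest in the RelB-KO libraries, by -0.78 ± 0.18 against WT (limma adjusted p 1.00, and 0.339 with the block), and the authors' deposited table gives -0.87 with an adjusted p of 0.000938.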

How the data were processed

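Treg RNA was made into TruSeq libraries, 2 in each of 4 genotypes. The deposited log2 values are called batch-corrected log2 RPKM per the file headers. STAR, DESeq2 1.10.1 and mm10 are named in the submitters' processing notes, and the batch method, counter and annotation are not given in the sources used here. Counts were not used here, so depth is unknown, beyond the 30 M reads of the design. Of 22432 genes listed, 6247 were at 0 and 1 had a blank cell. The 13797 that averaged 1 or more after un-logging were fitted with limma 3.58.1 in R 4.3.3 on the log2 values as deposited (genotype only, trend, 4 residual degrees of freedom). In each of 6 comparisons a gene was called where its p-value, after Benjamini-Hochberg adjustment over all of them, was under 0.05. The deposited fold changes and p-values, and their adjusted p-values, are the authors' own. Another 8 columns of z-scores were not used.

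Replicate difference correlated between genotypes (Pearson r 0.812 to 0.887 over genes in 6 pairs of genotypes), although the labels do not say what a number marks. The numbers were taken as pairs in the differences within a replicate and in the fit with replicate number as a block. That fit is given where it changes a call. The main fit ignores the pairing, and every SE above and every limma p-value not marked as with the block comes from it. The members, roles, pathway and marker lists were chosen with earlier results of these data known. Genes given in full are those called by either limma fit and the 5 with the smallest unadjusted p in 4 of the comparisons, with the 3 smallest among pathway genes in 2 of them. The scripts were tested on simulated data. Gene positions come from GENCODE (mm10). Promoters come from RefSeq (GRCm38.p6), and entries for Rtp4, Parp14, Oas2, Parp9, Usp18, Dhx58, Iigp1, Zbp1, Nlrc5, Tap2 and Mx1 are missing. Alternatives were a block, a pseudocount of 1, no filter, a filter at 32, quantile normalization and each library left out.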

Additional observations from a re-analysis of the deposited data

How the results depend on the processing

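No result changed direction under an alternative with all libraries (replicate block, pseudocount, filters, quantile normalization), and the medians of the 42 genes kept their value within the replicate spread. With the replicate block, genes called rose from 1 to 2 in RelB-KO against WT, from 47 to 402 in Nfkb2-KO against WT, from 2 to 9 in DKO against WT, from 106 to 693 in DKO against Nfkb2-KO, from 1 to 2 in DKO against RelB-KO and from 1 to 65 in the interaction, and 1 of the 42 (against 0) was called in Nfkb2-KO against WT and in DKO against Nfkb2-KO. The block changed no other call among the 42. Without the filter 20 genes were called in Nfkb2-KO against WT and 0 in DKO against RelB-KO, and with the stricter filter 15 and 0. The cause was not tested. With 1 library left out, genes called ranged from 1 to 12 (RelB-KO against WT), 0 to 29 (Nfkb2-KO against WT, 0 without WT replicate 1), 1 to 13 (DKO against WT), 8 to 58 (DKO against Nfkb2-KO, 8 without DKO replicate 2), 0 to 2 (DKO against RelB-KO) and 0 to 12 (interaction). Medians of the 42 ranged from -0.0501 to -0.00967, -0.228 to -0.152, -0.204 to 0.00289, -0.00435 to 0.184, -0.188 to 0.0515 and 0.0194 to 0.262 in the same order, and 0 of the 42 were called without the block. With the block and 1 library left out, tried after seeing the data, 0 to 3 were called in Nfkb2-KO against WT and 0 to 2 in DKO against Nfkb2-KO. Where an arm keeps 1 library, that library is assumed to vary like the other groups. Depth is unknown, and 2 libraries a genotype limit the precision.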
